A study of Mus musculus with 12 samples.

Results

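The small leucine-rich proteoglycans are a family of secreted matrix proteins, and 9 of its genes (Dcn, Lum, Bgn, Fmod, Ogn, Omd, Prelp, Aspn and Podn) were read here out of the 27998 genes of the count tables. They were picked by gene symbol as members of this family, with earlier results of these data known. The libraries hold dissociated cells of mammary glands of female C57BL/6J mice, aged 43 weeks, read by single-cell RNA sequencing in droplets, which counts unique molecular identifiers (UMIs) at the 3′ end of transcripts. There were 12 groups with 1 library each, and how many animals went into a library is not given in the sources used here. Intact mice kept ovarian function. The other 11 groups had been dosed with VCD (4-vinylcyclohexene diepoxide) at 160 mg/kg daily over 15 days, which destroys ovarian follicles over time and leaves the rest of the ovary in place. VCD_Vehicle had no hormone, VCD_E2 was given 1 µg of 17β-estradiol (E2) per animal per day for 1 week, and VCD_E2_P4 was given E2 with 1 mg of progesterone (P4) per animal per day. VCD_Low_PBDE, VCD_Low_E2 and VCD_Low_E2_P4 had the same hormone arms after a low dose of polybrominated diphenyl ethers (PBDEs, flame retardants) for 20 weeks, and VCD_High_PBDE, VCD_High_PBDE_E2 and VCD_High_PBDE_E2_P4 after a dose 20 times higher for 1 week, so that the PBDE dose and its duration change together and cannot be told apart. VCD_E2_ICI had E2 with a single dose of 5 mg of ICI (fulvestrant), which degrades the estrogen receptor. VCD_Vehicle_NormEnv was a second vehicle group, kept where PBDEs from cage plastics could have reached the mice. Hormones were given in the last week of PBDE treatment.

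Each family member has a protein core of leucine-rich repeats that binds collagen fibrils and sets how thick and how evenly spaced the fibrils become. The members also bind growth factors such as TGF-beta, and most carry chondroitin, dermatan or keratan sulfate chains. By protein sequence, Dcn (decorin), Bgn (biglycan) and Aspn (asporin) form class I, Fmod (fibromodulin), Lum (lumican), Prelp and Omd (osteomodulin) class II, Ogn (osteoglycin or mimecan) class III, and Podn (podocan) class V. Fibroblasts are their main source in most connective tissues, including the stroma of the mammary gland, where matrix is rebuilt as ducts grow and regress.

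Of 58620 barcodes, 46257 passed the depth and mitochondrial filters, and 30860 of them carried fibroblast markers and no UMI of the 6 excluded genes Epcam, Krt14, Ptprc, Cd52, Pecam1 and Cspg4. The libraries held between 41737881 and 109224969 UMIs. Fibroblasts were split into 4 subsets by 8 marker genes for each of the study's populations, and no member was among those genes. This gave 11443 Fib_0-like cells (markers such as Dpp4 and Pi16), 7504 Fib_1-like cells (Fabp4, Lpl), 3955 Fib_2-like cells (Postn, Tnc) and 3935 Fib_3-like cells (Gdf10, F3). A further 4023 fibroblasts had no score clearly above the next and were left out. The subsets are ranges of a per-cell score rather than separate types, and 1128 Fib_1-like, 782 Fib_2-like, 641 Fib_3-like and 545 Fib_0-like cells lay within 0.1 of the limit. Some of the markers are named in the study's text, which names no PBDE group, and the others came from an earlier analysis of these data and from general knowledge, so that the markers were not chosen independently of these libraries. By medians per cell each subset was highest for its own markers, but Fib_2-like cells also carried Fib_1 markers, at 40.2 UMIs per 10000 beside 50.8 for their own, and Fib_3-like cells at 28.4 beside 31.2. In the sums per library, which all tests use, Fib_1 markers stood above the Fib_3 markers of Fib_3-like cells in 8 of 12 libraries (3194 to 3983 CPM against 2867 to 4204), so that the name Fib_3-like stands for the score that drew these cells. Of 57499 barcode sequences, 740 were present in more than 1 library, and among the 26837 gated fibroblasts 382 had such a barcode. Results without these cells are given where they change a call.

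Of the 9 genes, 7 lie near another member (GRCm38, GENCODE M21). Dcn (ENSMUSG00000019929, chr10:97479609-97518143) and Lum (ENSMUSG00000036446, chr10:97565128-97572703) are neighbours 46984 bases apart. Aspn (ENSMUSG00000021388, chr13:49544443-49567565), Omd (ENSMUSG00000048368, chr13:49582462-49592822) and Ogn (ENSMUSG00000021390, chr13:49608046-49624501) follow each other on 1 strand with gaps of 14896 and 15223 bases. Prelp (ENSMUSG00000041577, chr1:133910304-133921414) is followed by Fmod (ENSMUSG00000041559, chr1:134037254-134048277) on the other strand, 115839 bases away. Bgn (ENSMUSG00000031375, chrX:73483602-73495933) and Podn (ENSMUSG00000028600, chr4:108014791-108096445) lie on their own. RefSeq promoter sequences (GRCm38.p6) were matched for 7 of the 9 members, with 2 starts for Podn that lie inside the span of the gene above.

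The 250 bases before the transcription start are printed for the 3 chromosome 13 genes, because all of them were highest in the same subset, and for Prelp and Podn, whose levels fell most with hormone. Each runs 5′ to 3′ on the strand of its gene. Capitals mark TATAAA, the letters of the TATA box, and GGTCA, a half-site of the estrogen response element, on either strand (as TTTATA and TGACC on the other).
Aspn, chr13:49544193-49544442, plus strand: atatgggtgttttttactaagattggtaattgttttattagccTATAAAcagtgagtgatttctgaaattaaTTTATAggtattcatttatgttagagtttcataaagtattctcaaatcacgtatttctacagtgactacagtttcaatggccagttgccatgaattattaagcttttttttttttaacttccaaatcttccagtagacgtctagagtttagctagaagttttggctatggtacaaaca
Omd, chr13:49582212-49582461, plus strand: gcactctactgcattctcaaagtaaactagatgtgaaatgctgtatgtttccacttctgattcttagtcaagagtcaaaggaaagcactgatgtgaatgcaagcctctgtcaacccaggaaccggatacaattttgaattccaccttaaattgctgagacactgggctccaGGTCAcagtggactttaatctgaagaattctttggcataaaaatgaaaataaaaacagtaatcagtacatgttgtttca
Ogn, chr13:49607765-49608014, plus strand: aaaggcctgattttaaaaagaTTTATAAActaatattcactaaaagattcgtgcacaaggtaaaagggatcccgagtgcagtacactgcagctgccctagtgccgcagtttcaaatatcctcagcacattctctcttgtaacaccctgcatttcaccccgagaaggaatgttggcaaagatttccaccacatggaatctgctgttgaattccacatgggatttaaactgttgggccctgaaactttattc
Prelp, chr1:133921402-133921651, minus strand: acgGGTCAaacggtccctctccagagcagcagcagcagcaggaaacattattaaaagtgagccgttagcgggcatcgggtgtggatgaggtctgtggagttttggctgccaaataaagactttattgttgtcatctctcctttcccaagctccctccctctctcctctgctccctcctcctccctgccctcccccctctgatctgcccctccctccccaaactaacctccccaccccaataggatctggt
Podn, upstream start, chr4:108031955-108032204, minus strand: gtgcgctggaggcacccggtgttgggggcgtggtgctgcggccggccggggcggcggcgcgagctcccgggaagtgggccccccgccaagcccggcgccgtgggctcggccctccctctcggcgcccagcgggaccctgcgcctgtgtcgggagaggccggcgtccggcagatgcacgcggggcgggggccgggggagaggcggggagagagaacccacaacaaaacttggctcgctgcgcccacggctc
Podn, downstream start, chr4:108030987-108031236, minus strand: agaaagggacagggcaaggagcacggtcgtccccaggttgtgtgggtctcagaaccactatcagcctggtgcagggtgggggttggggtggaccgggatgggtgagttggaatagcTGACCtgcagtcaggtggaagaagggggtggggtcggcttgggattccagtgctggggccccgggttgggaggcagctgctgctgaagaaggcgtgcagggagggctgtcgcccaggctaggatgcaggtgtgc

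TATAAA was found in 12.4% of the 32851 RefSeq promoter windows of this length and GGTCA in 35.2%. TATAAA occurred in Aspn and Ogn, each with 1 match per strand, and in Ogn these matches overlap each other. The matches lie 207 to 202 and 178 to 173 bases before the start in Aspn. In Ogn they lie 229 to 224 and 227 to 222 bases before it. GGTCA occurred once in Omd, once in Prelp and once before the downstream start of Podn. GGGCGG, the GC box, was in 32.7% of all windows and matched at 2 places before the upstream start of Podn and at 3 in Bgn, where the last 2 overlap. GC content ranged from 30.0% in Aspn to 78.0% before the upstream start of Podn. CCAAT (33.8% of all windows) matched once each in Aspn and Prelp, GGAATG, the TEAD site (12.6%), once in Ogn, and TGANTCA, the AP-1 site (6.75%), in none of the 8 windows of members. These matches are descriptions of letters in a window.

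The 9 genes made up a sizeable part of fibroblast RNA. Together they took 2.48% of all UMIs in Fib_2-like cells, 2.06% in Fib_3-like, 1.98% in Fib_1-like and 1.51% in Fib_0-like cells. Dcn alone was between 72.25% of the members' UMIs in Fib_1-like and 81.05% in Fib_0-like cells. In Fib_2-like cells the members' share of all UMIs ranged from 1.85% to 3.36% over the 12 libraries. Levels below are CPM, the usual scaling of counts to a common total, over the summed cells of a library and subset. Counting at the 3′ end takes 1 tag per transcript, and levels of different genes were not compared further.

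The subsets carried the members at different levels. Fib_0-like cells were the high subset for the 3 chromosome 13 genes, and the low subset for Lum, Bgn, Fmod and Podn. With the library as a block, edgeR's quasi-likelihood test on the 48 sums set each subset against the remaining 3. The members tested as changed were 8 of 9 in Fib_0-like (3 up, 5 down), 7 in Fib_1-like (5 up, 2 down), 7 in Fib_2-like (4 up, 3 down) and 4 in Fib_3-like cells (3 up, 1 down). Over all 12005 genes tested the shares called were 72.8% (36.4% up, 36.3% down), 61.1% (29.3% up, 31.8% down), 61.5% (30.7% up, 30.9% down) and 50.8% (26.3% up, 24.6% down), so most genes tested differed between subsets gated in this way, and the members' counts are read against that.

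Ogn, a class III member with a role in fibril growth, was higher in Fib_0-like cells than in the other 3 subsets in 12 of 12 libraries. Its level in Fib_0-like cells ran from 822 to 1517 CPM with a median of 1259.5, against medians of 779 in Fib_3-like, 692 in Fib_1-like and 313 in Fib_2-like cells. Fib_2-like cells had the lowest Ogn in 12 of 12 libraries. The log2 difference of Fib_0-like cells from the mean of the others was 1.16 ± 0.06 (SE, adjusted p = 6.36e-20), and that of Fib_2-like cells -1.51 ± 0.07 (adjusted p = 1.01e-20).

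Omd, which carries keratan sulfate and is best known from bone, was also highest in Fib_0-like cells in 12 of 12 libraries. Its median was 43.6 CPM there, 23.4 in Fib_2-like, 22.6 in Fib_3-like and 11.7 in Fib_1-like cells, the lowest subset in 12 of 12 libraries. The log2 difference was 1.31 ± 0.07 in Fib_0-like (adjusted p = 1.24e-18) and -1.40 ± 0.09 in Fib_1-like cells (adjusted p = 2.92e-16), and Fib_2-like and Fib_3-like cells, next to each other in this order, did not pass the test.

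Aspn, a class I member that binds collagen and TGF-beta, was likewise highest in Fib_0-like cells in 12 of 12 libraries. Its median was 204 CPM in Fib_0-like cells, and the medians of the others were 63.3 (Fib_2-like), 58.0 (Fib_3-like) and 41.3 (Fib_1-like). The log2 difference of Fib_0-like cells was 2.01 ± 0.13 (adjusted p = 1.44e-16). Ranges over libraries overlapped among the other 3 subsets, and the lowest of them was Fib_1-like in 7 libraries, Fib_3-like in 3 and Fib_2-like in 2. The lower Aspn of Fib_2-like cells (-0.41 ± 0.15, adjusted p = 0.022) turned to 0.68 when only the markers named in the study's text drew the subsets, and was lost without Intact, VCD_Vehicle_NormEnv or VCD_E2_ICI (-0.37 to -0.30, adjusted p from 0.0502 to 0.0927) and with library totals in place of TMM (-0.31, adjusted p = 0.0800).

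Bgn, the class I relative of decorin, separated Fib_0-like cells from the rest. Its level in Fib_0-like cells ran from 98.6 to 468 CPM with a median of 147, and in the other subsets from 841 to 2199 CPM, so that the ranges did not overlap. Medians rose from 1416 in Fib_1-like over 1597 in Fib_2-like to 1835 in Fib_3-like cells, and Fib_3-like was the highest subset in 9 libraries and Fib_2-like in 3. The log2 difference of Fib_0-like cells was -3.10 ± 0.15 (adjusted p = 1.40e-20).

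Podn, a class V member known to slow the growth of smooth muscle cells, was lowest in Fib_0-like cells in 12 of 12 libraries, with a median of 35.4 CPM. It was highest in Fib_3-like cells in 10 libraries, with a median of 165 CPM, and in Fib_1-like cells in the other two. The log2 difference was -1.68 ± 0.14 in Fib_0-like (adjusted p = 1.80e-13) and 1.22 ± 0.12 in Fib_3-like cells (adjusted p = 7.64e-11).

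Lum, a keratan sulfate carrier that regulates fibril spacing, was lowest in Fib_0-like cells in 12 of 12 libraries and highest in Fib_2-like cells in 11 of 12. Its medians were 4151 CPM in Fib_2-like, 2895 in Fib_1-like, 2113 in Fib_3-like and 943 in Fib_0-like cells. The log2 difference was -1.61 ± 0.06 in Fib_0-like (adjusted p = 2.71e-24) and 0.91 ± 0.05 in Fib_2-like cells (adjusted p = 7.41e-18).

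Dcn, a binder of type I collagen and TGF-beta, differed less. Its medians were 12652 CPM in Fib_0-like, 13736 in Fib_1-like, 15909 in Fib_3-like and 20247 in Fib_2-like cells, with overlapping ranges. The log2 difference was -0.37 ± 0.08 in Fib_0-like (adjusted p = 7.39e-05) and 0.38 ± 0.08 in Fib_2-like cells (adjusted p = 4.48e-05), and the other subsets did not pass the test. Fib_2-like cells had the highest Dcn in 9 libraries, but were lowest in 2, both of which had received E2 and P4.

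Prelp, which anchors basement membrane to underlying matrix, was highest in Fib_1-like cells in 11 of 12 libraries, with a median of 234 CPM. It was lowest in Fib_2-like cells in 8 libraries, at a median of 130 CPM. This depended on the hormone arm. In VCD_Vehicle, VCD_Low_PBDE and VCD_High_PBDE Prelp ran from 170 to 250 CPM in Fib_2-like and from 182 to 206 in Fib_0-like cells. In the libraries with E2 alone or E2 and P4 it ran from 39.7 to 133 and from 131 to 235. The log2 difference was 0.49 ± 0.12 in Fib_1-like (adjusted p = 7.42e-04) and -0.75 ± 0.14 in Fib_2-like cells (adjusted p = 1.15e-05). Neither call held with the subsets drawn by the markers named in the study's text (0.24 and -0.15, adjusted p = 0.0698 and 0.279), and the same setting ended the call of higher Podn in Fib_1-like cells (0.57 ± 0.13, adjusted p = 1.36e-04, against 0.20, adjusted p = 0.172). The same setting turned the higher Ogn of Fib_3-like cells from 0.26 ± 0.06 (adjusted p = 5.65e-04) to -0.33.

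Fmod, a regulator of collagen fibril assembly, was at background in Fib_0-like cells and low in the others. It was detected in 0.271% of Fib_0-like cells (median depth 18637 UMIs) and in 0.303% of immune cells (7363 UMIs), and its Fib_0-like level never exceeded 0.664 CPM. Over all libraries immune cells had 0.357 CPM of Fmod, but 16 of their 23 UMIs were in VCD_Low_E2_P4, and without that library the level was 0.122 CPM. In Fib_1-like cells 6.36% of cells and in Fib_2-like cells 4.70% of cells had a UMI, with medians of 4.87 and 6.77 CPM over libraries. The highest subset was Fib_1-like in 6 libraries and Fib_2-like in 6.

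**Figure D1:**
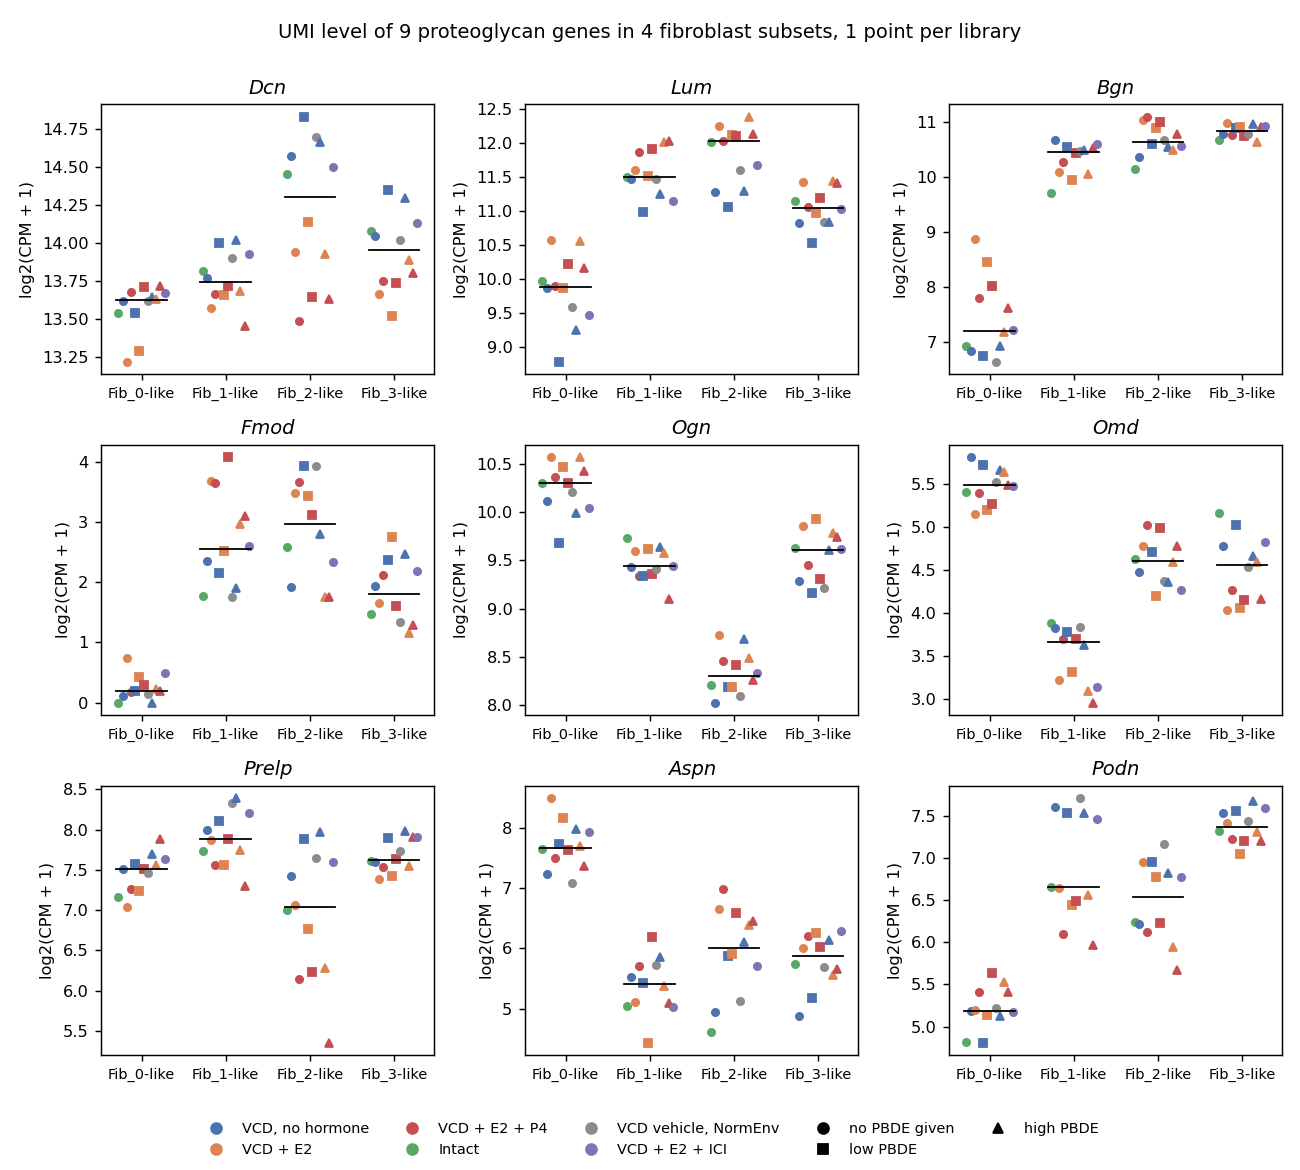
Level of each of the 9 genes as log2(CPM + 1) (vertical axis, own scale for each gene) in the 4 fibroblast subsets (horizontal axis), with 1 point per library, colour for the hormone arm, shape for the PBDE level given and a black bar for the median of the 12 libraries. Ogn, Omd and Aspn are highest in Fib_0-like cells in 12 of 12 libraries, and Lum, Bgn, Fmod and Podn lowest there in 12 of 12.

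Free RNA can give UMIs to cells that do not make a gene, so shares of cells were also taken after thinning each cell to 5000 UMIs. At that depth Dcn was found in 100% of the cells of every fibroblast subset and in 57.2% of 4381 immune cells (74.7% unthinned). Bgn was found in 32.0% of Fib_0-like cells, in 94.1% to 98.1% of the cells of the other subsets and in 10.00% of immune cells. Aspn was found in 52.2% of Fib_0-like cells, in 13.5% to 14.6% elsewhere among fibroblasts and in 1.16% of immune cells. For Omd the shares were 19.1% in Fib_0-like, 5.50% in Fib_1-like and 0.297% in immune cells, so that each of the 8 members other than Fmod stood above the immune share in every subset. Cells too shallow to be thinned were left out, 631 of them Fib_0-like, 597 Fib_3-like, 383 Fib_1-like, 381 Fib_2-like and 1890 immune. Unthinned, Bgn was found in 51.8% and Aspn in 75.2% of Fib_0-like cells.

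**Figure D2:**
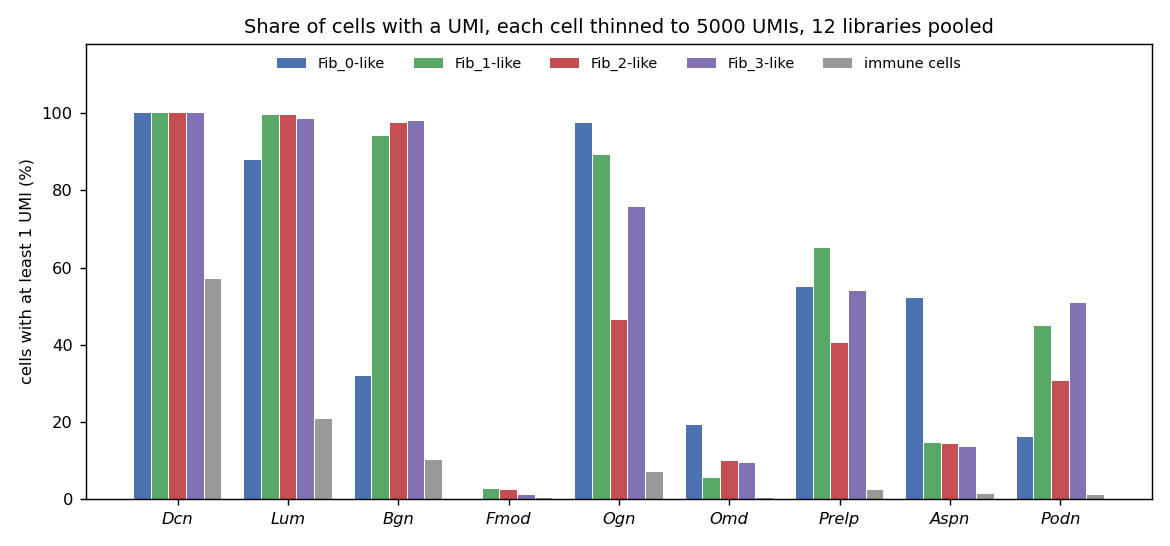
Share of cells with at least 1 UMI (vertical axis, percent) for the 9 genes (horizontal axis) in the 4 fibroblast subsets and in immune cells, at 5000 UMIs per cell and over the 12 libraries pooled. Bgn stands at 32.0% in Fib_0-like cells against at least 94.1% in the other subsets, and Aspn at 52.2% against at most 14.6%.

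Outside the fibroblasts, a few cells of other lineages carried some of the members. The 29 mural cells, which surround small vessels, had 1147 CPM of Aspn and 1324 CPM of Bgn, and Aspn was found in 86.2% of them (95% Clopper-Pearson interval 68.3% to 96.1%). The 97 endothelial cells had 718 CPM of Prelp, found in 58.8% of them (48.3% to 68.7%), against 4.64% of immune cells. The 57 Schwann cells had 353 CPM of Ogn (120 UMIs) and 241 CPM of Lum (82 UMIs, 42 of them in VCD_High_PBDE_E2_P4). The median depth was 3127 UMIs in mural and 7614 in endothelial cells.

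The series was designed, by its title, to read effects of estrogen, progesterone and endocrine disruptors on the mammary gland after VCD. The hormone contrast used the 9 VCD libraries that form a layout of 3 hormone arms by 3 PBDE levels. The mean of the E2 and E2 + P4 libraries (n = 6) was compared with the libraries without hormone (n = 3), with PBDE level in the model. PBDE levels stand in for replicates, which assumes that PBDE does not change the hormone effect. The p-values measure the spread left after hormone and PBDE level, and not that between repeat libraries of a group. The assumption was not tested. In Fib_2-like cells the log2 changes at no, low and high PBDE were close for Dcn (-0.84, -0.92 and -0.87) and apart for Prelp (-0.74, -1.36 and -2.08). Of the members tested, 4 of 8 were called in Fib_0-like cells (3 up, 1 down), 6 of 9 in Fib_1-like (2 up, 4 down), 4 of 9 in Fib_2-like (2 up, 2 down) and 1 of 9 in Fib_3-like cells (1 up). Fmod in Fib_0-like cells was too low to be tested. Over all genes tested the shares called were 11.9% (6.21% up, 5.66% down), 9.59% (5.41% up, 4.18% down), 33.3% (17.1% up, 16.3% down) and 2.92% (2.07% up, 0.847% down), in the same order. The median log2 change of the members tested was 0.23 for Fib_0-like, -0.35 for Fib_1-like, 0.05 for Fib_2-like and -0.20 for Fib_3-like cells, beside medians of all genes between -0.02 and 0.00. Lum was the 1 member called up in all 4 subsets, and no member was called down in all 4. Dcn and Prelp had negative log2 changes in all 4, most of them not called.

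In Fib_2-like cells Dcn fell as a share of all UMIs. Without hormone it was at 24421 CPM in VCD_Vehicle, 29156 in VCD_Low_PBDE and 25947 in VCD_High_PBDE. With E2 it was at 15733 in VCD_E2, 18046 in VCD_Low_E2 and 15600 in VCD_High_PBDE_E2, and with E2 and P4 at 11505 in VCD_E2_P4, 12790 in VCD_Low_E2_P4 and 12717 in VCD_High_PBDE_E2_P4. The 3 arms did not overlap. For the wider split, 10.3% of the genes tested were lower in every library with hormone than in every library without. The share with 3 separate arms was not counted. The log2 change was -0.96 ± 0.08 (adjusted p = 1.26e-05), with -0.84, -0.92 and -0.87 at no, low and high PBDE. In single cells the median Dcn content in Fib_2-like cells was between 253 and 286 UMIs per 10000 in the libraries without hormone and between 119.7 and 178 in those with hormone. Both measures are shares of the UMIs counted. Depth per cell was higher with hormone, with 5786621 UMIs in 588 Fib_2-like cells of VCD_Vehicle, 3740327 in 196 of VCD_E2 and 7976458 in 276 of VCD_E2_P4. A lower share therefore need not mean fewer Dcn UMIs in a cell, and Dcn UMIs per cell without scaling were not compared. Dcn had log2 changes of -0.35 ± 0.10 in Fib_1-like (adjusted p = 0.0527) and -0.45 ± 0.12 in Fib_3-like cells (adjusted p = 0.0680), which missed the threshold although the libraries with and without hormone did not overlap (3.78% and 5.87% of genes likewise lower), and of -0.08 ± 0.09 in Fib_0-like cells (adjusted p = 0.621).

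Lum moved the other way. In Fib_2-like cells it was at 2470, 2125 and 2509 CPM without hormone (no, low and high PBDE), at 4881, 4427 and 5342 with E2, and at 4167, 4407 and 4492 with E2 and P4. Every library with hormone was above every library without, and 17.8% of the genes tested were likewise higher without overlap. Its log2 change was 0.90 ± 0.09 (adjusted p = 4.91e-05). Lum also rose in Fib_0-like (0.89 ± 0.20, adjusted p = 0.0279), Fib_1-like (0.54 ± 0.12, adjusted p = 0.0206) and Fib_3-like cells (0.58 ± 0.11, adjusted p = 0.0227). In Fib_0-like cells the arms overlapped, with 438 to 933 CPM without hormone and 928 to 1522 with it. The shares of UMIs of Dcn and Lum, neighbours on chromosome 10, changed in opposite directions in Fib_2-like cells.

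The call for Lum in Fib_2-like cells held without any 1 library, and the calls in the other subsets did not. In Fib_0-like cells it was lost without VCD_E2, VCD_Low_PBDE, VCD_High_PBDE or VCD_High_PBDE_E2_P4 (log2 change 0.74 to 0.90, adjusted p up to 0.148), and with hormone alone in the model (0.85, adjusted p = 0.0516). In Fib_1-like cells it was lost without VCD_Low_PBDE, VCD_Low_E2_P4 or VCD_High_PBDE (0.44 to 0.49, adjusted p up to 0.110), and with the E2 libraries alone (0.44, adjusted p = 0.143). In Fib_3-like cells it was lost without VCD_Vehicle, VCD_E2, VCD_Low_PBDE, VCD_Low_E2_P4, VCD_High_PBDE or VCD_High_PBDE_E2_P4 (0.53 to 0.62, adjusted p up to 0.128), with hormone alone in the model (0.59, adjusted p = 0.0506) and with the E2 libraries alone (0.58, adjusted p = 0.0722).

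As a share of UMIs, Prelp fell in Fib_2-like cells by more than any other member called there. The higher depth per cell with hormone applies here as for Dcn, and Prelp UMIs per cell were not compared. Prelp was at 170, 236 and 250 CPM without hormone, at 133, 108 and 77.0 with E2, and at 69.7, 74.1 and 39.7 with E2 and P4. The arms did not overlap, and 10.3% of genes were lower in every library with hormone than in every library without. Its log2 change was -1.54 ± 0.19 (adjusted p = 2.13e-04), with -0.74, -1.36 and -2.08 at no, low and high PBDE. Prelp also fell in Fib_1-like cells (-0.54 ± 0.13, adjusted p = 0.0351), a call lost without VCD_Vehicle, VCD_E2_P4, VCD_Low_PBDE, VCD_Low_E2, VCD_High_PBDE or VCD_High_PBDE_E2 (-0.65 to -0.37, adjusted p up to 0.153), with a doubled margin between subsets (-0.43, adjusted p = 0.0902), without the 5% of cells with most UMIs (-0.51, adjusted p = 0.0512) and with the E2 libraries alone (-0.47, adjusted p = 0.191). In Fib_0-like cells its log2 change was -0.20 ± 0.08 by edgeR (adjusted p = 0.131). With the E2 libraries alone Prelp was called down there (-0.38 ± 0.09, adjusted p = 0.0474).

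Podn fell in Fib_1-like cells. It was at 194, 185 and 186 CPM without hormone, at 99.3, 86.1 and 93.4 with E2, and at 67.6, 89.2 and 61.7 with E2 and P4. Every library without hormone was above every library with it, as for 3.78% of the genes tested. The log2 change was -1.23 ± 0.10 (adjusted p = 2.29e-04), and it held without any 1 library. In Fib_3-like cells the arms did not overlap either (184 to 204 CPM without hormone, 132 to 170 with it, 5.87% of genes likewise), but the log2 change of -0.30 ± 0.09 did not pass the test (adjusted p = 0.106). In Fib_0-like cells the log2 change of Podn was 0.35 ± 0.11 (adjusted p = 0.0749).

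Bgn moved in opposite directions in 2 subsets. In Fib_0-like cells it was at 113, 106 and 121 CPM without hormone, at 468, 352 and 145 with E2, and at 223, 260 and 197 with E2 and P4, with no overlap between the 3 libraries without and the 6 with hormone (7.87% of genes likewise higher). The log2 change was 1.16 ± 0.27 (adjusted p = 0.0322), and it was lost without VCD_Vehicle, VCD_Low_PBDE, VCD_Low_E2, VCD_Low_E2_P4 or VCD_High_PBDE_E2_P4 (0.97 to 1.14, adjusted p up to 0.166), with a doubled margin (1.10, adjusted p = 0.0511) and with the markers of the study's text (0.96, adjusted p = 0.0568). In the same cells the summed Fib_3 markers were at 120 to 199 CPM without hormone and 217 to 403 with it, and their part in the rise of Bgn was not tested. In Fib_1-like cells Bgn was at 1633, 1499 and 1443 CPM without hormone, at 1094, 994 and 1065 with E2, and at 1245, 1397 and 1485 with E2 and P4. VCD_High_PBDE_E2_P4 lay above VCD_High_PBDE, so the arms overlapped. The log2 change was -0.38 ± 0.09 (adjusted p = 0.0238), and it was lost without VCD_Vehicle, VCD_E2_P4, VCD_Low_PBDE or VCD_Low_E2 (-0.37 to -0.31, adjusted p up to 0.120).

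The chromosome 13 genes did not move as 1 group. In Fib_0-like cells Ogn rose from 1106, 822 and 1016 CPM without hormone to 1517, 1411 and 1517 with E2 and 1314, 1262 and 1376 with E2 and P4. The libraries with and without hormone did not overlap (7.87% of genes likewise higher), and the log2 change was 0.50 ± 0.07 (adjusted p = 0.00747, and 0.0553 with 0.44 without VCD_Low_PBDE). Omd fell in the same cells, from 55.0, 51.6 and 49.6 CPM to 34.4, 35.5 and 48.6 with E2 and 41.0, 37.5 and 43.8 with E2 and P4. They did not overlap either (5.65% of genes likewise lower), and the log2 change was -0.41 ± 0.11 (adjusted p = 0.0449, and 0.0516 without the cells of shared barcodes). The call was lost without VCD_Vehicle, VCD_E2, VCD_E2_P4, VCD_Low_PBDE, VCD_Low_E2, VCD_Low_E2_P4 or VCD_High_PBDE_E2_P4 (-0.43 to -0.32, adjusted p up to 0.217), and under 4 other settings (-0.48 to -0.38, adjusted p up to 0.0633). Aspn in Fib_0-like cells ranged from 150 to 252 CPM without and from 165 to 363 CPM with hormone, and the log2 change was 0.12 ± 0.20 (adjusted p = 0.751).

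The other 3 calls were each lost without single libraries. Fmod rose in Fib_1-like cells, from 4.09, 3.46 and 2.74 CPM without hormone to between 4.71 and 15.8 CPM with it, without overlap (7.93% of genes likewise higher). The log2 change was 1.46 ± 0.27 (adjusted p = 0.0109), and it was lost without VCD_Vehicle or VCD_Low_PBDE (1.45 to 1.47, adjusted p up to 0.0631), and with the E2 libraries alone (1.14, adjusted p = 0.109). Omd fell in Fib_1-like cells (-0.45 ± 0.12, adjusted p = 0.0447), a call lost without each 1 of the 9 libraries in turn (-0.50 to -0.39, adjusted p up to 0.139) and under 7 other settings (-0.62 to -0.38, adjusted p up to 0.200). Aspn rose in Fib_2-like cells (0.79 ± 0.26, adjusted p = 0.04), with a log2 ratio of 1.89 at no PBDE against 0.41 and 0.33 at low and high PBDE, and was lost without VCD_Vehicle, VCD_E2, VCD_E2_P4, VCD_Low_E2_P4 or VCD_High_PBDE_E2 (0.29 to 0.80, adjusted p up to 0.183), and under 6 other settings (0.60 to 0.94, adjusted p up to 0.285).

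**Figure D3:**
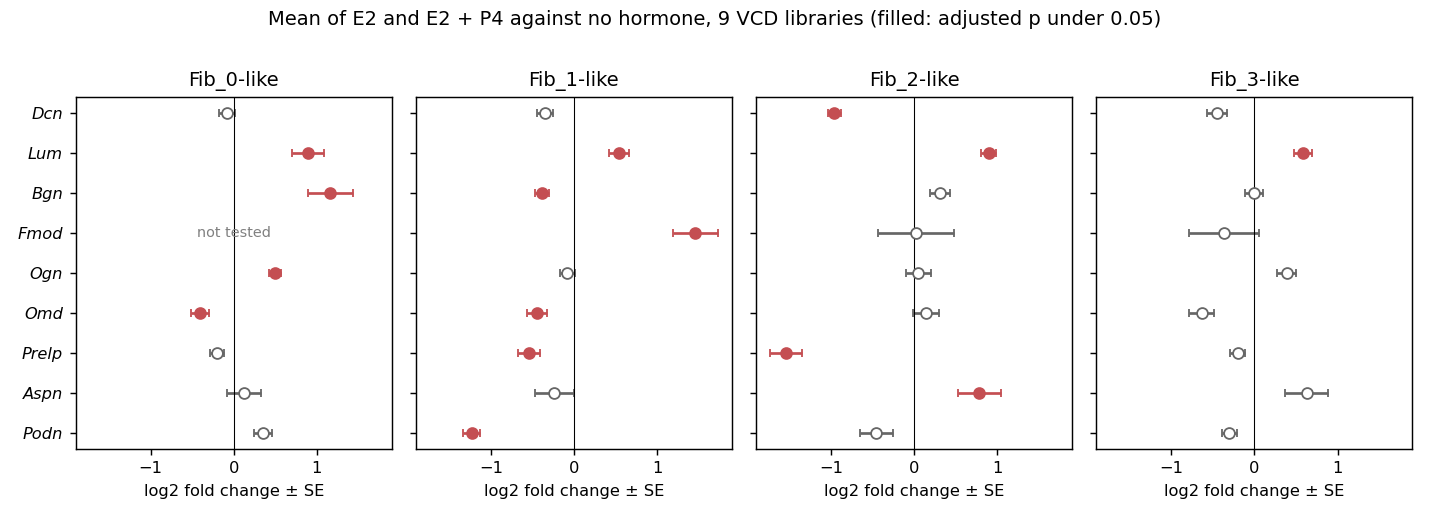
Log2 fold change of the 9 genes (rows) between the mean of the E2 and E2 + P4 libraries and the libraries without hormone (horizontal axis), in the 4 fibroblast subsets (panels), with bars of 1 standard error and filled points for an adjusted p under 0.05. Lum is right of 0 and filled in every panel, while Dcn is filled in Fib_2-like cells alone.

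The subsets were drawn by markers, and some of these markers moved with hormone. In Fib_2-like cells 6 of the 8 gate markers were called (2 up, 4 down), among them Postn (3.04 ± 0.24) and Penk (-1.90 ± 0.20). Their summed level was 3976.5 to 4325 CPM without hormone and 5524 to 11937 with it, and the summed Fib_1 markers in the same cells went from 3264 to 3406 CPM to 4654 to 5982. In Fib_1-like cells the summed Fib_1 markers went from 12231 to 13076 CPM without hormone to 13907 to 17881 with it, and the summed Fib_2 markers from 1019 to 1131 to 1149 to 3964. In these cells 2 of 8 gate markers were called and in Fib_0-like cells 1, while the lowest adjusted p of the 8 in Fib_3-like cells was 0.0847. Summed over the 6 basal epithelial markers, Fib_2-like cells had 1.78 to 3.45 CPM without hormone and 10.2 to 59.4 with it, with Krt14 at 0 by selection, and over the 6 mural markers 157 to 199.9 and 219 to 324, with Cspg4 at 0 by selection. The 6 Schwann cell markers went the other way there, from 16.2 to 20.5 CPM without hormone to 9.89 to 13.7 with it. In Fib_1-like cells the 6 adipocyte markers summed to 4.30 to 7.51 CPM without and 11.5 to 109 with hormone, with Adrb3 at 0. The basal list includes Acta2 and the mural list Pdgfrb, and the part of single genes in these sums is not given here. The part of these shifts in the members' changes was not tested. The falls of Dcn and Prelp and the rise of Lum in Fib_2-like cells, and the fall of Podn in Fib_1-like cells, kept their call under all 22 alternatives, including the subsets drawn with a doubled margin and by the markers of the study's text. Both of these gates still use markers that moved with hormone, such as Postn for Fib_2-like and Fabp4 for Fib_1-like cells. They therefore do not test the part of these shifts.

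Whether the hormone effect differed between subsets was tested directly, as the change in 1 subset minus the mean change in the other 3. Members called were 5 of 9 in Fib_0-like cells (17.8% of all genes), 3 in Fib_2-like (27.7%), 2 in Fib_1-like (2.91%) and none in Fib_3-like cells (4.17%). In Fib_3-like cells 3 of the 9 members had an unadjusted p under 0.05 by edgeR (17.4% of all genes), and DESeq2 called Prelp. Dcn fell more in Fib_2-like cells (-0.67 ± 0.08, adjusted p = 4.39e-06) and less in Fib_0-like cells (0.51 ± 0.08, adjusted p = 2.73e-04) than in the others. Prelp differed in the same 2 subsets, at -1.21 ± 0.17 (adjusted p = 3.57e-05) in Fib_2-like and 0.55 ± 0.17 (adjusted p = 0.0282) in Fib_0-like cells. Podn differed in Fib_1-like (-1.11 ± 0.16, adjusted p = 7.30e-04) and Fib_0-like cells (1.01 ± 0.17, adjusted p = 3.88e-04), and Bgn in Fib_0-like (1.18 ± 0.17, adjusted p = 9.81e-05) and Fib_1-like cells (-0.88 ± 0.16, adjusted p = 0.00527). Ogn rose more in Fib_0-like cells (0.38 ± 0.13, adjusted p = 0.0476) and Omd had a higher change in Fib_2-like cells (0.64 ± 0.15, adjusted p = 0.00295). For Lum, which rose in every subset, no difference between subsets passed the test with edgeR or with DESeq2, at an unadjusted p under 0.05 in Fib_0-like and Fib_1-like cells.

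Each value sets 1 subset against the other 3, so a fall in 1 subset raises the values of the others. The changes of Dcn, Prelp and Podn within Fib_0-like cells were not called in the hormone contrast above. Of these 10 differences, 6 held under all 20 alternatives tried for them. That of Ogn in Fib_0-like cells was lost without the cells of shared barcodes (adjusted p = 0.0511) and without VCD_E2_P4, VCD_Low_PBDE, VCD_Low_E2, VCD_Low_E2_P4, VCD_High_PBDE, VCD_High_PBDE_E2 or VCD_High_PBDE_E2_P4 (0.24 to 0.41, adjusted p up to 0.351), and under 7 other settings (0.30 to 0.41, adjusted p up to 0.398). That of Prelp in Fib_0-like cells was lost without VCD_E2_P4, VCD_Low_PBDE, VCD_Low_E2, VCD_High_PBDE, VCD_High_PBDE_E2 or VCD_High_PBDE_E2_P4 (0.28 to 0.59, adjusted p up to 0.220). That of Bgn in Fib_1-like cells was lost without VCD_Vehicle or VCD_Low_PBDE (-0.85 to -0.65, adjusted p up to 0.128) and with the markers of the study's text (-0.62, adjusted p = 0.0853). That of Omd in Fib_2-like cells was lost without VCD_Vehicle (0.50, adjusted p = 0.087), with the markers of the study's text (0.37, adjusted p = 0.0939) and thinned (0.36, adjusted p = 0.240).

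Adding P4 to E2 called none of the members in any subset by edgeR, against 0.0394%, 0.952%, 1.64% and 0.0618% of all genes, from the Fib_0-like subset to the Fib_3-like one. At an unadjusted p under 0.05 there were 4, 5, 4 and 2 members, beside 10.5%, 17.3%, 15% and 7.89% of all genes. In Fib_2-like cells, Dcn was lower in the 3 libraries with P4 (11505 to 12790 CPM) than in the 3 with E2 alone (15600 to 18046), without overlap (9.26% of genes likewise lower). Its log2 change was -0.41 ± 0.09 (adjusted p = 0.0527). Prelp in the same cells was at 39.7 to 74.1 CPM with P4 and 77.0 to 133 with E2 alone, with a log2 change of -0.79 ± 0.23 (adjusted p = 0.123). DESeq2 called both of these, and Dcn in Fib_0-like cells, where edgeR gave 0.41 ± 0.11 (adjusted p = 0.278). Ogn was lower with P4 than with E2 alone without overlap in Fib_0-like, Fib_1-like and Fib_3-like cells (14.7%, 8.94% and 8.86% of genes likewise), with log2 changes of -0.08 ± 0.08, -0.35 ± 0.11 and -0.31 ± 0.13 (adjusted p = 0.760, 0.152 and 0.604). Aspn was also lower without overlap in Fib_0-like cells (165 to 198 against 207 to 363 CPM). Bgn in Fib_1-like cells was higher with P4 without overlap (1245 to 1485 against 994 to 1094 CPM, log2 change 0.36 ± 0.10, adjusted p = 0.12). So was Dcn in Fib_0-like cells (13080 to 13446 against 9527 to 12717 CPM). The shares of genes likewise higher were not counted.

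Against no PBDE, the low dose called no member by edgeR or DESeq2, and no member had an unadjusted p under 0.05 in any subset, beside 4.73%, 2.99%, 3.12% and 3.6% of all genes. Of all genes, 0.00835% were called in Fib_1-like cells and 0% in each of the other subsets. For the high dose edgeR called none either (0.0788%, 0.267%, 0.209% and 0.159% of all genes), with 1 member at an unadjusted p under 0.05 in each subset, beside 19.6%, 15.6%, 14.6% and 15.2% of all genes. The lowest was Prelp in Fib_0-like cells, at 0.43 ± 0.09 (adjusted p = 0.0910), the 1 member that DESeq2 called.

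Intact, VCD_E2_ICI and VCD_Vehicle_NormEnv have 1 library each and no counterpart, so their values carry no test and their intervals cover counting error only. In VCD_E2_ICI, Dcn of Fib_2-like cells was at 23129 CPM, near VCD_Vehicle (24421) and above VCD_E2 (15733). Podn of Fib_1-like cells was at 177 CPM, again nearer to VCD_Vehicle (194) than to VCD_E2 (99.3). Bgn of Fib_0-like cells was at 148 CPM, between VCD_Vehicle (113) and VCD_E2 (468), and Prelp of Fib_2-like cells was at 192 CPM, above both VCD_Vehicle (170) and VCD_E2 (133). Lum of Fib_2-like cells lay between, at 3267 CPM against 2470 in VCD_Vehicle and 4881 in VCD_E2, with a log2 ratio to VCD_E2 of -0.58 (95% interval -0.61 to -0.55).

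The Intact library resembled the libraries without hormone for some members and those with hormone for others. Dcn of its Fib_2-like cells was at 22448 CPM, with a log2 ratio of -0.12 to VCD_Vehicle (interval -0.13 to -0.11). Lum of the same cells was at 4135 CPM, just below the lowest library with hormone (4167). Podn of its Fib_1-like cells was at 100.1 CPM, just above VCD_E2 (99.3), with a log2 ratio of -0.96 to VCD_Vehicle (interval -1.06 to -0.85). Bgn of its Fib_1-like cells was at 841 CPM, below every other library. VCD_Vehicle_NormEnv had 26574 CPM of Dcn and 3091 CPM of Lum in Fib_2-like cells and 209.8 CPM of Podn in Fib_1-like cells, and Podn of its Fib_2-like cells was at 143 CPM against 73.6 in VCD_Vehicle.

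**Figure D4:**
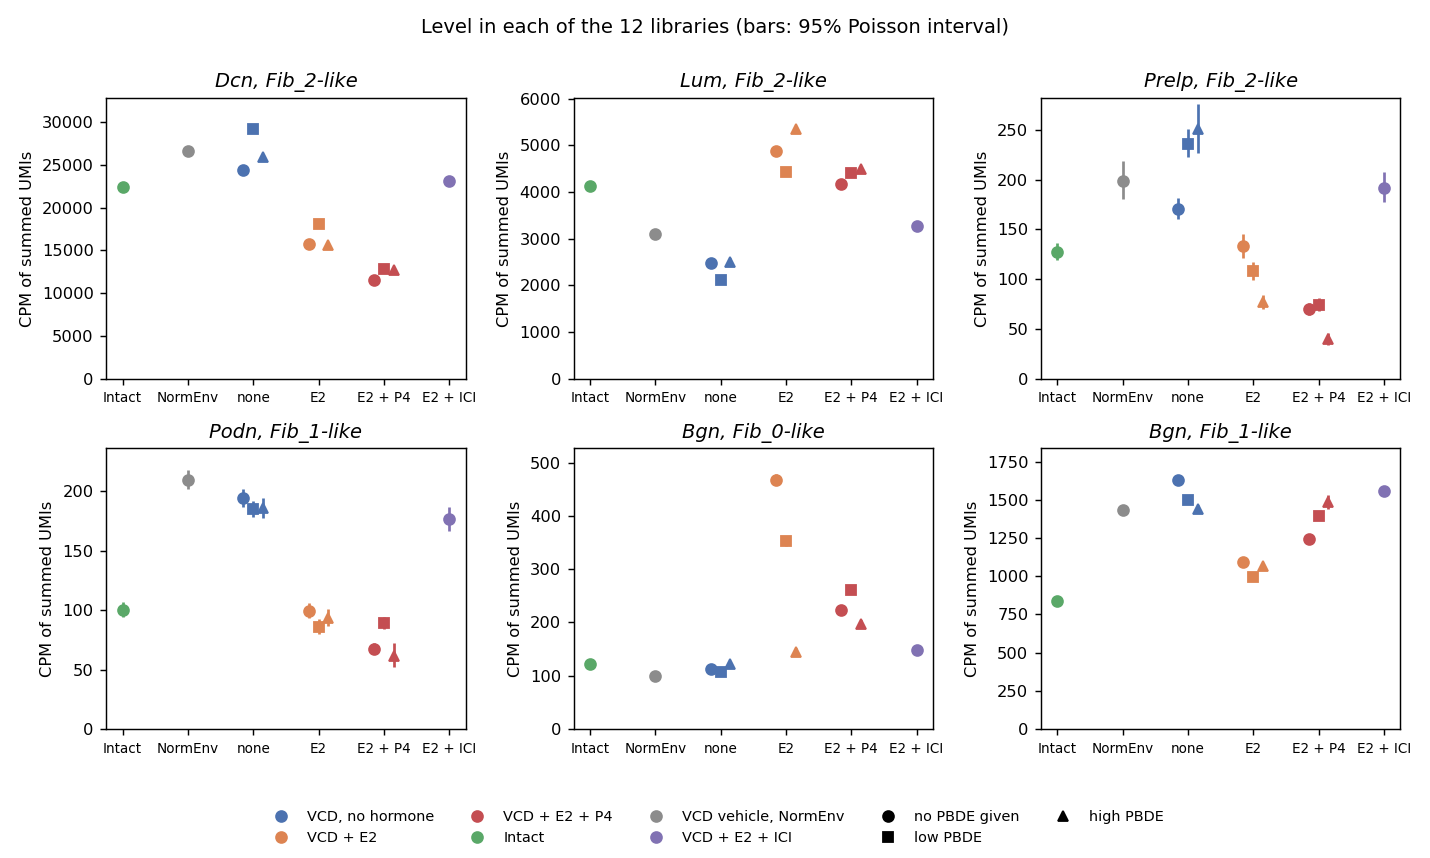
Level in CPM (vertical axis, from 0) of 5 members in named subsets for each of the 12 libraries, by hormone arm (horizontal axis), with shape for the PBDE level given and bars for the 95% Poisson interval of the count. In Fib_2-like cells Dcn is at 24421 CPM or more in the 3 libraries without hormone and at 18046 or less in the 6 with E2 or E2 + P4, while Lum is at 2509 or less and at 4167 or more.

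Other genes of the pathway were read from lists, whose counts stand beside the 33.3% of all genes called with hormone in Fib_2-like, 11.9% in Fib_0-like, 9.59% in Fib_1-like and 2.92% in Fib_3-like cells. The fibrillar collagens, which the members coat, rose in Fib_2-like cells for 8 of the 8 genes tested (of 11 in the list), with a median log2 change of 1.85. Col3a1 (2.26 ± 0.13) and Col1a1 (2.10 ± 0.12) were among the largest changes, both also used to gate fibroblasts as such. Col11a1 was at 2 counts in all 3 libraries without hormone together and at 130 in the 6 with it, 1 to 63 per library (log2 ratio of the pooled rates 4.49, interval 2.60 to 7.55). In Fib_0-like cells 3 collagens rose and in Fib_3-like cells 2, and the 7 tested in Fib_1-like cells had a median of 0.32 and did not pass. Adding P4 raised 3 of them further in Fib_2-like cells (Col1a1, Col1a2 and Col3a1). In Fib_2-like cells the CPM of Dcn fell while that of these collagens rose.

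Enzymes that build chondroitin and dermatan sulfate, the chains of Dcn and Bgn, rose in Fib_2-like cells for 9 of 18 genes tested and fell for 1 (Ust), where 17.1% of all genes rose and 16.3% fell. The largest changes were in the chain polymerase Chsy1 (1.69 ± 0.12), the sulfotransferase Chst15 (1.12 ± 0.16) and the polymerising factor Chpf (1.02 ± 0.13). In Fib_1-like cells 5 rose and 2 fell of 19, in Fib_0-like cells 1 rose of 18, and the 18 tested in Fib_3-like cells did not pass. The list's median log2 change was 0.47 in Fib_2-like cells and between 0.03 and 0.10 elsewhere. Adding P4 raised Chpf further in Fib_1-like cells (0.65 ± 0.12, adjusted p = 0.0451).

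Enzymes of keratan sulfate synthesis rose for 4 and fell for 1 of 8 tested in Fib_2-like cells. The sulfotransferase Chst2 rose in Fib_2-like (2.28 ± 0.19) and Fib_1-like cells (1.49 ± 0.14), and rose further with P4 in Fib_1-like cells (1.30 ± 0.15, adjusted p = 0.011). The sulfotransferase Chst1 fell in Fib_0-like cells (-0.87 ± 0.11).

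Among 10 proteases that cut the members or their matrix, 5 were called in Fib_0-like cells (3 up, 2 down), 1 in Fib_1-like (up) and 5 in Fib_2-like (4 up, 1 down), and the 7 tested in Fib_3-like cells did not pass. The largest changes were in Mmp3 (stromelysin), which rose in Fib_0-like (1.35 ± 0.28) and fell in Fib_2-like cells (-0.36 ± 0.11), in the aggrecanase Adamts4 in Fib_2-like cells (1.19 ± 0.21), and in the tolloid protease Tll1 in Fib_0-like cells (-1.04 ± 0.26). With P4 added to E2, Mmp3 fell further in Fib_2-like cells (-0.82 ± 0.13, adjusted p = 0.016). A list of 11 genes held TGF-beta ligands and receptors reported to bind members, and other receptors. Of these, 6 were called in Fib_2-like cells (3 up, 3 down), 3 in Fib_0-like (all down), 1 in Fib_1-like (down) and 1 in Fib_3-like cells (up). The shares of all genes above apply to these counts and to those of the proteases. The largest changes were in Met, a receptor that decorin binds, which fell in Fib_2-like (-1.59 ± 0.20) and Fib_1-like cells (-0.88 ± 0.17), and in Tgfb2 in Fib_3-like cells (0.88 ± 0.19).

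Of 10 further family genes, 4 or 5 were high enough to test in each subset. Kera (keratocan), which lies beside Lum on chromosome 10 (chr10:97606879-97613692), rose in Fib_2-like cells from 1 to 21 counts per library without hormone to 28 to 140 with it (2.70 ± 0.52, adjusted p = 0.00288). In Fib_1-like cells it had 1 count in the 3 libraries without hormone and 63 in the 6 with it (log2 ratio of the pooled rates 5.52, interval 2.99 to 10.85). The libraries with hormone held from 0 to 33 of these counts each. Ecm2, the neighbour of Aspn (chr13:49504810-49532789), fell in Fib_2-like (-1.06 ± 0.14, adjusted p = 3.17e-04) and Fib_3-like cells (-0.57 ± 0.12, adjusted p = 0.0372).

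Over the 48 sums of library and subset, the genes whose log2(CPM + 1) tracked each member most closely were ranked by Pearson's r among 7742 genes whose mean reached 10 CPM. Sums of 1 library share their depth and treatment, and r spans differences between subsets and between treatments alike. The highest for Dcn were Aebp1 (0.915), Tmod2 (0.867) and Bcl2 (0.864), and for Lum Calm3 (0.958), Ttyh3 (0.952) and Dhx58os (0.944). The highest for Bgn were Igfbp7 (0.966), Cd9 (0.954) and Dact3 (0.954). The highest for Ogn were Adam9 (0.938), Slc44a1 (0.925) and Ebf3 (0.925), for Omd Col14a1 (0.921), Ntn4 (0.899) and Apbb2 (0.899), and for Aspn Fbn1 (0.904), Islr2 (0.896) and Abca5 (0.895). The highest for Prelp were Gsn (0.879), Gstt1 (0.847) and Tuba4a (0.842), and for Podn Ndrg2 (0.921), Steap4 (0.921) and Cygb (0.913). Fmod was below this level and was not ranked.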

How the data were processed

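The authors aligned the reads and counted unique molecular identifiers per gene and cell with Cell Ranger 3.1.0 on mm10, per the submitters' processing notes, and deposited filtered matrices of raw counts. As in the study, cells needed 500 genes, 1000 UMIs and a mitochondrial share of 5% or less, and cells with a UMI of 6 genes of other lineages were removed. Fibroblasts needed at least 4 of 6 fibroblast markers and fewer than 3 of the 6 markers of any other lineage, and were assigned to the subset with the highest score over 8 markers, by a margin of 0.25. No doublet caller was run. An alternative drops the 5% of cells with most UMIs. The members, lists and markers were chosen with earlier results of these data known.

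Counts were summed per library and subset and tested with edgeR 4.0.16 (quasi-likelihood, TMM, filterByExpr) in R 4.3.3, with Benjamini-Hochberg adjustment over all genes and a threshold of 0.05. Hormone fits had hormone and PBDE level as terms. The subset fit had the library as a block, and the interaction fit tested hormone by subset. DESeq2 1.42.0 was an alternative. On simulated counts with 200 genes changed by 1 on the log2 scale, the hormone fits recovered 84% (Fib_0-like, 12678 genes), 92.5% (Fib_1-like, 11917), 85% (Fib_2-like, 11401) and 79% (Fib_3-like, 11315), the subset fit 97.5% (Fib_2-like, 11857) and the interaction fit 73.5% (Fib_2-like, 12340). Apart from the changed genes, the simulated counts had the same profile in all libraries and subsets. The real sums differ in many genes, so these shares need not hold for them. Intervals are 95% and cover counting error only. The named genes are the 9 members, the 3 genes most alike to each and the 3 largest changes of each list. The other alternatives changed the normalisation, low-count filter, mitochondrial limit (10%), negative selection, gate margin, gate markers, depth per cell and model terms, or left out 1 library.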

Additional observations from a re-analysis of the deposited data

Results flagged for a closer look

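For 10 pairs of a member and a subset, the hormone effect in that subset differed from the mean effect in the other 3 by edgeR's quasi-likelihood interaction test. In Fib_0-like cells the difference in log2 change was 0.51 for Dcn, 1.18 for Bgn, 0.38 for Ogn, 0.55 for Prelp and 1.01 for Podn. In Fib_1-like cells it was -0.88 for Bgn and -1.11 for Podn. In Fib_2-like cells it was -0.67 for Dcn, 0.64 for Omd and -1.21 for Prelp. Positive values mean a higher change with hormone than in the other subsets. Each value sets 1 subset against 3 from the same libraries, so the values of a gene are not independent of each other. The part of the markers that moved with hormone within the subsets was not tested.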

How the results depend on the processing

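Of 51 calls of members, 31 held under every alternative, 19 were lost under at least 1 and 2 reversed (1 of them among those lost), both with the gate on the markers named in the study (Aspn in Fib_2-like cells 0.68, Ogn in Fib_3-like cells -0.33). The alternatives for PBDE and those without shared barcodes were chosen after seeing the data. Members called with E2 in Fib_0-like cells were 4, but 2 with a doubled margin, with the study's markers or with hormone alone in the model, and 0 to 4 without 1 library. In Fib_1-like cells they were 6, but 2 with the E2 libraries alone, and 1 to 5 without 1 library. In Fib_2-like cells they were 4, and 3 to 5. In Fib_3-like cells they were 1, but 3 without TMM or with the study's markers, 5 without the low-count filter, 2 with DESeq2, without negative selection, without the 5% of cells with most UMIs or thinned, and 0 with hormone alone or the E2 libraries alone, and 0 to 4 without 1 library. Adding P4 called 0, but 1 in Fib_0-like cells with DESeq2, and in Fib_2-like cells 1 without TMM, with the 10% mitochondrial limit or thinned, 2 with DESeq2 or a doubled margin, 3 without the filter, and 0 to 1 without 1 library. High PBDE called 0, but 1 in Fib_0-like cells with DESeq2 and in Fib_2-like cells without the filter, and 0 to 1 in both without 1 library. Differences of the hormone effect were 5 in Fib_0-like cells (3 to 6 without 1 library), 2 in Fib_1-like (1 to 3, and 1 with the study's markers) and 0 in Fib_3-like cells (1 without TMM or with DESeq2). Over all genes, E2 called 1507, 1148, 3817 and 331, from the Fib_0-like to the Fib_3-like subset, with ranges over the alternatives of 198 to 1703, 469 to 1761, 2224 to 4107 and 26 to 761. P4 called 5, 114, 188 and 7 (0 to 126, 1 to 456, 0 to 616 and 0 to 139), low PBDE 0, 1, 0 and 0 (0 to 3, 0 to 14, 0 to 27 and 0 to 24) and high PBDE 10, 32, 24 and 18 (1 to 338, 3 to 253, 1 to 291 and 1 to 245). The interaction called 2292, 374, 3561 and 536 (889 to 2402, 60 to 529, 2001 to 3787 and 143 to 641), and the subset test in Fib_3-like cells 6102, but 4012 when thinned. Without TMM the split of higher and lower genes moved from 648 and 500 to 889 and 395 (E2, Fib_1-like), from 235 and 96 to 178 and 170 (E2, Fib_3-like), from 3681 and 3704 to 5066 and 2619 (Fib_2-like against the others), from 3153 and 2949 to 2450 and 4206 (Fib_3-like), and in the interaction from 187 and 187 to 246 and 151 (Fib_1-like), from 1674 and 1887 to 2227 and 1505 (Fib_2-like) and from 357 and 179 to 185 and 456 (Fib_3-like). The cause was not tested. The library was a block in the subset fit and PBDE level a term in the hormone fits, while the labels give no replicate numbers shared by groups on which to pair them further. Depth limits Fmod most, with a median of 0.145 CPM in Fib_0-like cells.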
